A study of Mus musculus with 4 samples.

Results

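Car2 encodes carbonic anhydrase 2, a cytosolic enzyme, and is set here beside 7 genes that are abundant in, or used by, red cell precursors: the alpha globin genes Hba-a1 and Hba-a2, the transferrin receptor gene Tfrc, the haem synthesis gene Alas2, the transcription factor genes Klf1 and Gata1, and the biliverdin reductase gene Blvrb. These 8 genes were taken by name out of 17723 genes listed in any library. Car2 was selected on its measured level, which was higher in DNAM-1+ cells, and the others were set beside it by their known roles, so the DNAM-1 contrast of all 8 is a description with no test. The study sorted natural killer (NK) cells from spleen of C57BL/6J mice, aged 6-8 weeks per the labels, into cells with and without surface DNAM-1, an activating receptor, and sequenced their total RNA. Normal spleen stands for day 0, and AML spleen for day 17 after transfer of GFP+ MLL-AF9 acute myeloid leukaemia cells into mice that were not irradiated. Each of the 4 groups holds 1 library, so differences between libraries have no replicate check. Where 4 values follow each other they stand for normal spleen with DNAM-1+ before DNAM-1- cells, followed by AML spleen likewise. The labels give neither the number of mice behind a library nor any gate other than NK and DNAM-1.

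Carbonic anhydrases interconvert carbon dioxide with bicarbonate and a proton. In red cells, carbonic anhydrase activity serves the transport of carbon dioxide in blood, and the enzyme is also known from acid-secreting cells such as osteoclasts. Maturing red cells fill with haemoglobin, so that alpha and beta globin become their most abundant messages, while GATA1 and KLF1 switch on globin, haem and membrane genes. Tfrc brings in iron, and dividing cells of any lineage use it too. Blvrb acts on products of haem breakdown, and macrophages that clear old red cells express genes of that pathway.

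Levels are FPKM as deposited (fragments per kilobase of transcript, scaled to library size), a scale per transcript length on which genes of 1 library can be compared. Genes absent from a library's list count as 0. The depth, estimated from the smallest steps of low values, was 9200000, 9100000, 9300000 and 9200000 fragments. The intervals below are 95% intervals for counting error alone, from read numbers estimated with that depth, and do not cover the spread between mice. Cd226, the gene of DNAM-1, was at 38.6, 0.45, 36.1 and 0.58 FPKM, and the NK receptor genes Ncr1 and Klrb1c at 573, 383, 597 and 423 FPKM and at 370, 318, 422 and 379 FPKM. Cd226 was high in both DNAM-1+ libraries and near 0 in the others, and both NK genes were high in all 4.

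The alpha globin genes are near-identical copies, which bears on how their values can be read. Their coding sequences of 429 bases in GENCODE M21 (GRCm38) differ at 1 base, C381T, counted from the start codon and written from Hba-a1 to Hba-a2. The 61 coding bases around it are shown because they hold the single difference, in capitals.
Hba-a1: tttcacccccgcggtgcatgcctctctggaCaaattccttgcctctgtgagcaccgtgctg
Hba-a2: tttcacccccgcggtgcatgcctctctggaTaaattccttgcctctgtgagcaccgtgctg
Of 380 windows of 50 coding bases, 331 (87.1%) are the same in both copies. The beta globin genes Hbb-bs and Hbb-bt also differ at 1 of 444 coding bases, and 367 of 395 windows (92.9%) are the same. The split between copies is therefore uncertain, and the sum of each pair is used below.

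GATA1 is known to bind GATA sites and KLF1 to bind CACCC sites. RefSeq promoters (GRCm38.p6) matched 7 of the 8 genes; Car2 had no match. In the 250 bases before the start site, GATAA or its reverse complement TTATC occurred in 4 of these 7 genes, Hba-a1, Hba-a2, Alas2 and Klf1, against 22.6% of 32851 promoter windows of the same length. CACCC or its reverse complement occurred in all 7, against 52.0%. The 7 genes have 9 windows, with more than 1 for Tfrc and Blvrb, so counts of genes and shares of windows are not alike. Hba-a1 and Hba-a2 are copies, so their matches are not independent. Matches of the motifs can share 1 base, and 10.1% of all windows hold both. The GATAA or TTATC matches of the genes that mark red cell precursors most directly are shown in capitals within 35 bases, on the plus strand. CACCC matches are left in lower case.
Hba-a1, chr11:32283475-32283509: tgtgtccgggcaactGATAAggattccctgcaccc
Alas2, chrX:150547316-150547350: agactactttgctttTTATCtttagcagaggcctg
Klf1, chr8:84901887-84901921: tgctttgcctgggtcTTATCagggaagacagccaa
A match describes these letters alone and is not evidence of binding.

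Car2 (NCBI Gene 12349) was an abundant message in every library. Its level was 136, 53.4, 131 and 53.4 FPKM. Both DNAM-1+ libraries lay above both DNAM-1- libraries, and the libraries of a subset lay close together. These levels correspond to about 2172, 845, 2116 and 854 reads. Car2 was 2.54-fold higher in DNAM-1+ cells of normal spleen (counting interval 2.35 to 2.76) and 2.45-fold higher in AML spleen (2.26 to 2.66). It stood above 96.9% and 96.7% of the listed protein-coding genes in the DNAM-1+ libraries and above 90.6% and 90.3% in the DNAM-1- libraries.

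**Figure D1:**
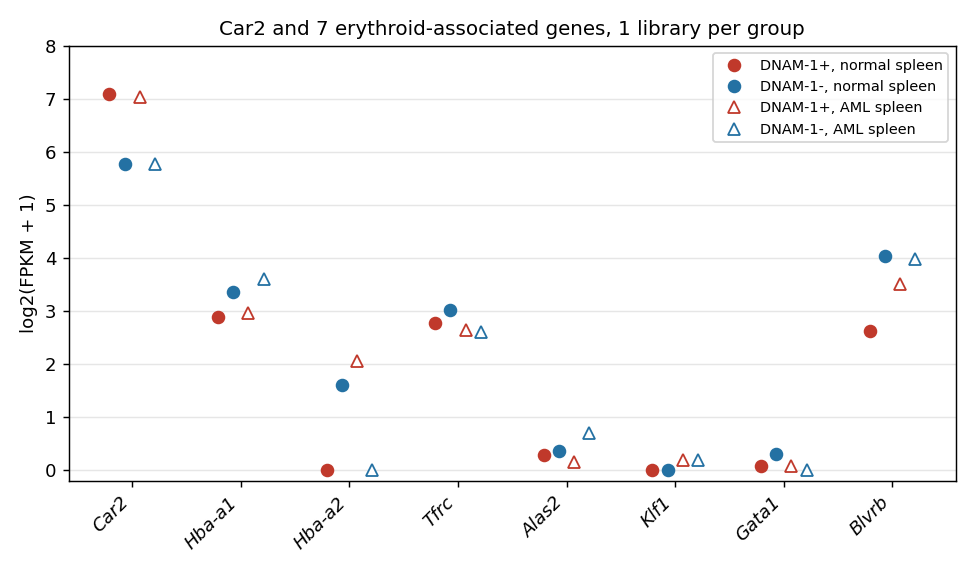
Level of each of the 8 genes on a log2(FPKM + 1) axis, with 1 point per library. Red marks DNAM-1+ and blue DNAM-1- cells, filled circles normal and open triangles AML spleen. Car2 lies above the other 7 genes in each library, and Alas2, Klf1 and Gata1 lie near 0.

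Among all genes with 5 FPKM or more in the higher of 2 libraries, and after adding 1 FPKM to both values, 1.28% were higher by 2-fold or more in the DNAM-1+ library of normal spleen and 3.97% were lower. In AML spleen these shares were 0.894% and 3.19%. Of the 8 genes, 4 reached 5 FPKM (Car2, Hba-a1, Tfrc and Blvrb). Car2 was at least 2-fold higher in both spleens, with log2 ratios of 1.33 and 1.28, and Blvrb at least 2-fold lower in normal spleen, with a log2 ratio of -1.41. Since the contrast chose Car2, nothing is read from these counts.

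Globin RNA was low, and its order among the libraries was not that of Car2. Hba-a1 (15122) was at 6.41, 9.31, 6.84 and 11.1 FPKM, and Hba-a2 (110257) was listed at 2.05 FPKM in the DNAM-1- library of normal spleen and 3.19 in DNAM-1+ cells of AML spleen and at 0 in the others. Their sum was 6.41, 11.4, 10.03 and 11.1 FPKM. The DNAM-1+ library of normal spleen was the low one, and the other 3 lay close together. Alpha globin was 1.77-fold higher in DNAM-1- than in DNAM-1+ cells of normal spleen (counting interval 1.10 to 2.85) and 1.11-fold higher in AML spleen (0.739 to 1.70, which includes no difference).

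Beta globin had the same order. Hbb-bs was at 0.73, 3.26, 2.06 and 3.9 FPKM and Hbb-bt at 2.08, 2.95, 3.63 and 1.89 FPKM, so that the pair summed to 2.81, 6.21, 5.69 and 5.79 FPKM. The DNAM-1+ library of normal spleen was again the low one. The other 8 globin genes matched, among them the embryonic genes and Hbb-b1 and Hbb-b2, which belong to a beta globin haplotype other than that of C57BL/6, were listed in no library. The 4 listed globin genes summed to 9.22, 17.6, 15.7 and 16.9 FPKM, from about 45, 85, 78 and 82 reads.

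Alas2 (11656), the erythroid form of the first enzyme of haem synthesis, was at 0.22, 0.29, 0.11 and 0.63 FPKM, or about 4, 5, 2 and 12 reads. Its level was highest in DNAM-1- cells of AML spleen, 5.73-fold above DNAM-1+ cells of that spleen, with a counting interval of 1.35 to 55.8. In normal spleen the ratio was 1.32, with an interval of 0.272 to 6.37 that includes no difference.

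The erythroid transcription factors were close to undetected. Klf1 (16596), which drives adult beta globin, was listed at 0 in both libraries of normal spleen and at 0.14 and 0.15 FPKM in DNAM-1+ and DNAM-1- cells of AML spleen, about 2 reads each. Gata1 (14460), the master regulator of red cell precursors, which megakaryocytes and mast cells use too, was at 0.06, 0.24, 0.06 and 0 FPKM, at most about 4 reads. At this depth no difference in either gene was detectable.

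Tfrc (22042) was at 5.81, 7.16, 5.22 and 5.07 FPKM, about 259, 315, 235 and 226 reads. The DNAM-1- library of normal spleen was the high one, and the other 3 lay close together. Tfrc was 1.23-fold higher in DNAM-1- than in DNAM-1+ cells of normal spleen (counting interval 1.04 to 1.46), and in AML spleen the ratio was 0.971 (0.806 to 1.17). Proliferation genes were set beside it: by limma with Benjamini-Hochberg adjustment, described below, 17 of 20 rose in the DNAM-1+ subset and 0 fell, where 7.35% of all genes tested rose. The division marker gene Mki67 was at 63.2, 22.7, 36.3 and 16.8 FPKM, highest in the DNAM-1+ library of normal spleen, where Tfrc was not.

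Blvrb (233016) was at 5.15, 15.4, 10.4 and 14.9 FPKM. Both DNAM-1- libraries lay above both DNAM-1+ libraries, and the DNAM-1+ library of normal spleen was the lowest. Blvrb was 2.98-fold higher in DNAM-1- cells of normal spleen (counting interval 2.14 to 4.302) and 1.43-fold higher in AML spleen (1.09 to 1.88). Red pulp macrophage markers moved with it in part: all 10 were listed in every library, and they summed to 32.4, 99.4, 36.7 and 82.0 FPKM. Cd163, one of them, did not follow the subsets, at 1.71, 1.9, 1.72 and 1.43 FPKM. In DNAM-1+ cells the sum was 32.4 in normal and 36.7 in AML spleen, where Blvrb was at 5.15 and 10.4. The part of these macrophages in the Blvrb values was not tested. In bulk libraries, fewer cells of a type and less RNA per cell cannot be told apart.

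The ratio of Car2 to the other genes differed between subsets. The ratio of Car2 to the 4 globin genes was 14.7 and 8.32 in the DNAM-1+ libraries of normal and AML spleen, and 3.04 and 3.16 in the DNAM-1- libraries. To alpha globin alone it was 21.2, 4.70, 13.1 and 4.81. Car2 was at 23.4, 7.45, 25.1 and 10.5 times the level of Tfrc, and at 26.4, 3.47, 12.6 and 3.58 times that of Blvrb. For each of these genes both DNAM-1+ ratios exceeded both DNAM-1- ratios. Car2 is the numerator of each ratio and was selected for its higher level in DNAM-1+ cells. A gene of even level therefore gives this order too. The haem synthesis gene Alas1, for example, gave ratios of 18.45, 6.95, 19.6 and 8.08. Nothing about erythroid RNA is read from the order.

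**Figure D2:**
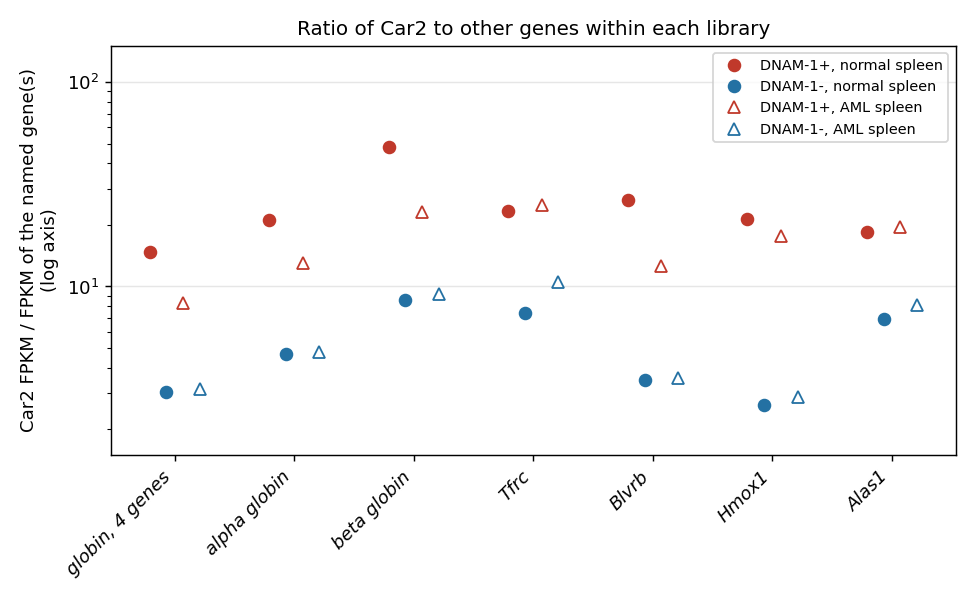
Ratio of the Car2 level to that of each gene or gene sum within a library, on a log axis, with 1 point per library and symbols as for the levels. For each denominator the red DNAM-1+ points lie above the blue DNAM-1- points, and the ratio to the 4 globin genes runs from 3.04 to 14.7. Car2, the numerator throughout, was selected for its higher level in DNAM-1+ cells, so a denominator of even level gives this order too.

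Erythroid markers as a list were low in every library, next to Car2 levels between 53.4 and 136 FPKM. Of 19 matched markers, 12, 12, 13 and 15 were listed above 0, and they summed to 15.4, 23.9, 22.0 and 24.4 FPKM, globins included. The 13 markers other than globins summed to 6.19, 6.36, 6.31 and 7.49 FPKM, and 11 of them stayed below 1 FPKM in all 4 libraries. Most of that sum was Ermap, a red cell surface protein, at 3.66, 4.09, 4.3 and 4.83 FPKM. The anion exchanger gene Slc4a1, whose protein is a main component of the red cell membrane, was at 0.05, 0.05, 0.12 and 0.1 FPKM. The erythropoietin receptor gene Epor was at 0.12, 0.06, 0.3 and 0.12 FPKM. Car1, the other carbonic anhydrase known from red cells, was at 0.09, 0.1, 0.19 and 0.19 FPKM. Slc4a1, Epor and Car1 were each higher in the AML than in the normal library of both subsets, and none of them was above 0.3 FPKM. The markers Hemgn, at 1.19, 0.88, 0.62 and 0.58 FPKM, and Epb42, at 0.73, 0.71, 0.51 and 0.58, were lower in both. The low markers thus had no common direction between spleens.

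The wider erythroid, haem and iron genes were tested with limma on log2(FPKM + 1) over the 4 libraries, additive in subset and spleen, which leaves 1 residual degree of freedom. The residual of this fit is the interaction, so a call concerns the mean difference over both spleens. No group has a replicate, so limma's p values, here and elsewhere in the text, do not cover the spread between mice. Of 9074 genes that reached 5 FPKM in some library, limma called 7.35% higher and 8.38% lower in DNAM-1+ cells after Benjamini-Hochberg adjustment (threshold 0.05). Of 86 matched list genes other than the 8 described above, 45 were tested, 2 rose (4.44%) and 12 fell (26.7%) by limma. Their median log2 difference was -0.03, against 0.01 for all genes tested. With no floor on FPKM, limma called 0 of them in either direction and 0 genes in all. A gene could meet the floor, and so enter the test, only through the subset in which it was high. Among the genes that fell, Hfe, Slc11a1 and Bcl11a reached 5 FPKM only in DNAM-1- libraries. This limit holds for all lists tested by limma, and Cd3e, for example, reached the floor only in DNAM-1+ libraries. In the DNAM-1+ library, 6 of 44 genes at the floor were lower by 2-fold or more in normal spleen and 6 of 45 in AML spleen, and 0 were higher by that much in either. Over all genes, 3.97% and 3.19% were lower by that much, and 1.28% and 0.894% were higher.

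Among erythroid transcription regulators, 5 of 8 fell and 0 rose by limma, where 8.38% and 7.35% of all genes tested did. Lyl1 (31.7 against 5.98 FPKM in DNAM-1- and DNAM-1+ cells of normal spleen, 29.3 against 7.33 in AML spleen) and Lmo2 (21.9 against 3.96 and 19.9 against 5.27) are early blood cell regulators that are also used by myeloid or B cells. Bcl11a (19.6 against 3.92 and 17.8 against 4.3), the silencer of fetal globin, is needed for B cells as well. For these 3 genes limma's adjusted p was 7.1e-05, 0.00020 and 8.6e-05. Nfe2 and Cbfa2t3 fell too, while Ldb1, an adaptor of GATA1 complexes found in many cell types, was at 140, 137, 149 and 144 FPKM. B cell markers, which summed to 192, 922, 211 and 891 FPKM with all 6 listed in every library, moved with these genes. Monocyte markers, 9 of 9 listed and summing to 311, 738, 372 and 754 FPKM, moved with them in part: by limma 6 of 8 tested fell, while Ccr2 rose (log2 difference 0.34, adjusted p = 0.014) and Ly6c2 was not called (-0.13, adjusted p = 0.28). The part of either cell type in the result was not tested.

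Iron and haem breakdown genes fell in part. Of 12 tested iron genes, 4 fell and 1 rose by limma. Over all genes tested, for these and the haem breakdown genes alike, 8.38% fell and 7.35% rose. The macrophage divalent metal transporter gene Slc11a1 was at 2.69 against 16.2 FPKM in DNAM-1+ and DNAM-1- cells of normal spleen, and 1.4 against 13.0 in AML spleen (adjusted p = 0.00016). Also lower by limma were the haemochromatosis gene Hfe, at 1.08, 13.2, 2.24 and 12.5 FPKM, and the ferritin chain genes Fth1, at 445, 538, 462 and 596, and Ftl1, at 275, 424, 310 and 406. Slc11a2, the ubiquitous relative of Slc11a1, rose (8.46 against 5.87 and 10.3 against 7.61). Among haem breakdown and transport genes, 2 of 5 fell and 0 rose: Hmox1, which opens the haem ring, at 6.34 against 20.2 and 7.37 against 18.5 FPKM, and the exporter gene Abcg2. The red pulp macrophage markers given above, except Cd163, moved with the genes that fell, and Hmox1 is one of these markers.

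Haem synthesis and red cell membrane genes gave no calls in this contrast. Too few of them were tested to set this apart from the shares over all genes. Of the 8 tested haem synthesis enzymes other than Alas2, 0 rose and 0 fell by limma, and 1 had an unadjusted p below 0.05. Of all 9074 genes, 7.35% rose, 8.38% fell and 2687 had an unadjusted p below 0.05. Alas1, the housekeeping counterpart of Alas2, was at 7.36, 7.68, 6.68 and 6.61 FPKM, and Fech, which inserts the iron, at 6.4, 7.53, 7.61 and 7.42. Of 19 membrane genes only 3 reached the floor (Gypc, Epb41 and Tmod1), with 0 calls and 0 unadjusted p values below 0.05. Epb41, a skeleton protein of many cells, was at 59.8, 57.7, 62.7 and 62.5 FPKM. Among 10 other tested genes of maturing red cells, the peroxiredoxin gene Prdx2 rose (25.4 against 21.1 and 26.5 against 20.3) and the mitochondrial iron importer gene Slc25a37 fell (8.99 against 16.4 and 10.7 against 16.0). These counts are too small to set apart from the 7.35% and 8.38% over all genes.

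**Figure D3:**
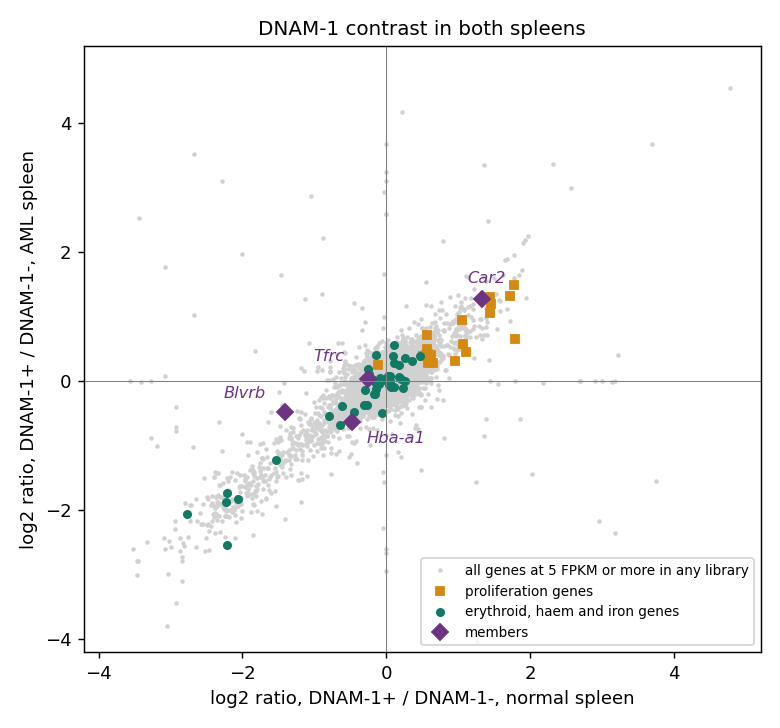
Log2 ratio of DNAM-1+ over DNAM-1- cells in normal spleen (horizontal) and AML spleen (vertical), after adding 1 FPKM, for genes that reached 5 FPKM in some library. Diamonds mark the members at that floor, circles the other erythroid, haem and iron genes and squares the proliferation genes. Car2 lies at 1.33 and 1.28, and no circle lies above a log2 ratio of 1 on either axis.

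Within its family Car2 stood alone in this range of levels. Of 16 carbonic anhydrase genes, 15 were listed in some library and 12 stayed below 1 FPKM in all 4. Car5b, a mitochondrial form, was the next in level, at 15.6, 17.7, 15.02 and 18.5 FPKM. It did not pass limma's threshold in the DNAM-1 contrast, with a log2 difference of -0.23 (SE 0.07, adjusted p = 0.087). Car15 was at 1.27, 2.85, 2.08 and 1.71 FPKM and Car5a, the other mitochondrial form, at 0.95, 2.07, 0.87 and 0.78. Car13, a cytosolic relative of Car2, was at 0.24, 0.39, 0 and 0.29 FPKM, and Car4, a membrane-bound form, was listed in no library.

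**Figure D4:**
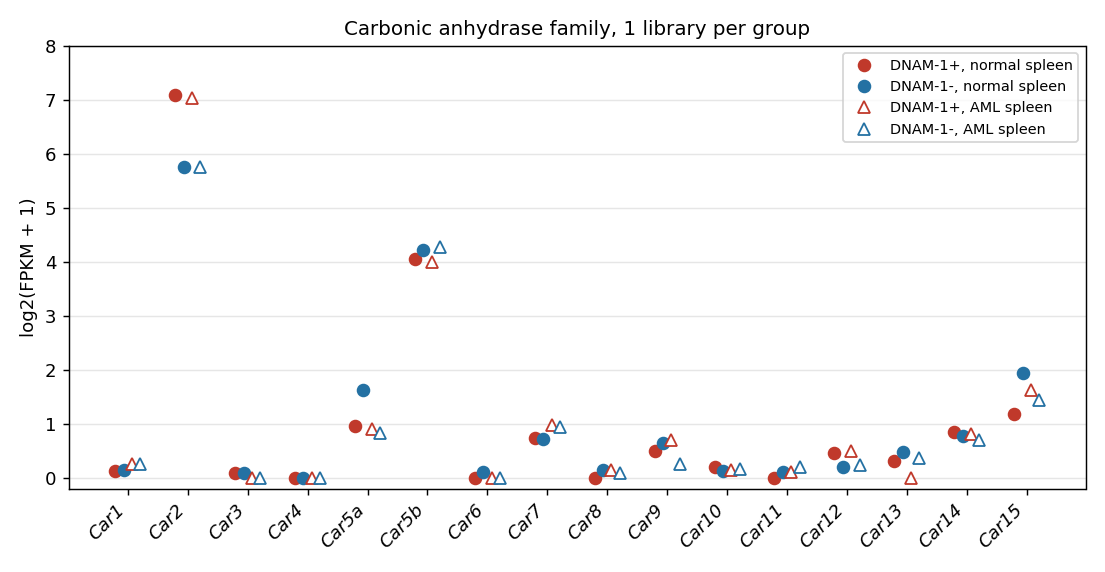
Level of the 16 carbonic anhydrase genes on a log2(FPKM + 1) axis, with 1 point per library and symbols as for the levels of the 8 genes. Only Car2 and Car5b lie above 5 FPKM, and only Car2 has both DNAM-1+ points more than 1 log2 unit above both DNAM-1- points.

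Genes that move bicarbonate, protons and lactate, the substrates and partners of carbonic anhydrases, were counted as a list. Of 7 tested, limma called 0 higher and 1 lower in DNAM-1+ cells, counts too small to set apart from the 7.35% and 8.38% over all genes, and their median log2 difference was 0.06. The gene that fell was Hvcn1, a proton channel known from B cells and phagocytes (47.0, 83.2, 50.8 and 78.8 FPKM, adjusted p = 0.0014). The bicarbonate and chloride exchanger gene Slc4a2 was at 24.2, 23.3, 24.6 and 23.5 FPKM, and Bsg, a chaperone of lactate transporters, at 125, 108, 118 and 112.

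The profiles most like that of Car2 were sought among 8527 protein-coding genes that reached 5 FPKM in some library, by the distance between log2(FPKM + 1) values centred on each gene's mean over the 4 libraries. Such a likeness over 4 libraries is a description. The nearest was the NK and T cell receptor gene Cd160 (distance 0.102; 63.8, 22.7, 61.4 and 24.5 FPKM). The integrin chain gene Itgb3 followed (0.120; 8.26, 3.08, 8.81 and 3.02 FPKM), then Gdpd5 (0.149; 5.13, 1.67, 5.08 and 1.78 FPKM). The T cell receptor complex gene Cd3d was at a distance of 0.174, with 12.8, 5.29, 12.2 and 4.94 FPKM, and Ckb, Rpl31-ps12 and Asb2 at 0.188, 0.211 and 0.224.

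**Figure D5:**
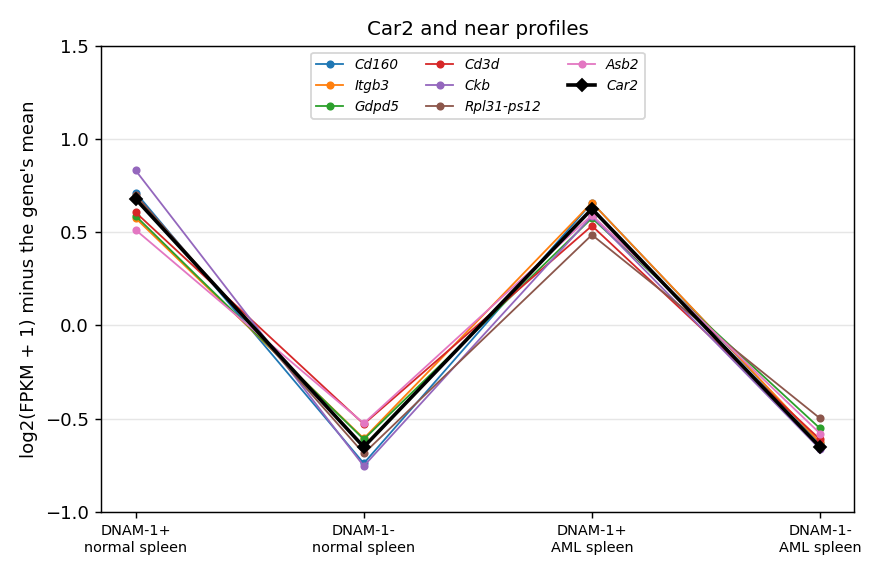
Log2(FPKM + 1) minus each gene's mean over the 4 libraries, for Car2 (black diamonds) and the 7 near genes named in the text, with 1 point per library; lines join the points of a gene and carry no order. All of these genes lie above 0 in both DNAM-1+ and below 0 in both DNAM-1- libraries.

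The other members at the floor had different neighbours. Nearest to Hba-a1 were Gab2 (distance 0.0097; 5.48, 8.08, 5.89 and 9.58 FPKM), the protease gene Cma1 (0.031), Hsd17b11, Agpat4 and Dennd5a. Nearest to Tfrc were Psg23 (0.029), Nudt6, Zbtb48, Mrpl12 and Fam162a. Nearest to Blvrb were the immediate early gene Fosb (0.161; 11.1, 27.2, 20.4 and 30.6 FPKM), Bcl2a1d, Sik1, Rhbdf2 and Plk2. No member was among the nearest genes of another member. Only the 5 nearest genes (8 for Car2) of 8527 were kept, and members below the floor were not compared. Nothing is therefore read from this.

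Markers of other cells that express erythroid or carbonic anhydrase genes were examined as lists. Platelet and megakaryocyte markers (12 genes, 11 of them below 1 FPKM in all libraries) summed to 6.3, 5.6, 8.0 and 5.7 FPKM, with 11, 7, 11 and 6 listed. The highest of them, Gp1bb, did not follow the subsets, at 2.56, 3.4, 3.79 and 3.49 FPKM. Mast cell and basophil markers (9 genes) summed to 4.2, 2.2, 4.5 and 2.8 FPKM, with 5, 3, 6 and 4 listed. Fcer1a, Mcpt4 and Tpsb2 were listed in no library. Both lists thus had higher sums and more genes listed in the DNAM-1+ libraries, at low levels. T cell markers moved with Car2 in part: all 8 were listed in every library and summed to 63.2, 26.0, 59.6 and 22.0 FPKM. Most of that sum was Cd3d, Cd3e and Cd3g, the 3 of 4 tested that rose in DNAM-1+ cells by limma, where 7.35% of all genes tested rose. Cd8b1 was lower in the DNAM-1+ library of both spleens, at 2.28, 5.32, 0.67 and 2.11 FPKM, and was not called (adjusted p = 0.12). The coreceptor genes Cd4 and Cd8a were at 1.29, 1.3, 1.38 and 0.75 FPKM and at 3.7, 2.17, 2.88 and 2.92 FPKM. Markers of type 1 innate lymphoid cells moved with Car2 as well, summing to 62.3, 7.3, 64.8 and 8.0 FPKM with 5 of 6 listed and Zfp683 at 0. In the DNAM-1+ libraries most of that sum was Il7r, which was at 38.47, 2.06, 38.65 and 2.1 FPKM. Haematopoietic progenitor and leukaemia markers (10 genes) summed to 20.5, 11.2, 32.7 and 19.9 FPKM. The highest was Kit, at 17.9, 7.86, 25.3 and 9.78, the 1 gene of this list tested, which rose by limma (log2 difference 1.19). Flt3 went the other way, at 0.5, 1.49, 1.13 and 2.54 FPKM. The part of these cells in the Car2 values was not tested. The NK markers, 9 of 9 listed, summed to 7137, 6312, 7479 and 7434 FPKM. Most of that sum was Gzma, at 3885, 3210, 3947 and 4072 FPKM. Of the 9 NK markers tested, Ncr1 and Tbx21 rose by limma and 0 fell, where 7.35% and 8.38% of all genes tested did.

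The contrast of AML with normal spleen was not used to choose the genes. Car2 was at 131 against 136 FPKM in DNAM-1+ cells and at 53.4 in both libraries of DNAM-1- cells, with ratios of 0.964 (counting interval 0.907 to 1.02) and 1.00 (0.908 to 1.10). Across all genes limma called 0.0661% higher and 0.287% lower in AML spleen, and it called none of the 4 members tested. The fitted log2 difference was -0.03 for Car2 (SE 0.06, adjusted p = 0.90), 0.16 for Hba-a1 (SE 0.10, adjusted p = 0.58), -0.28 for Tfrc (SE 0.14, adjusted p = 0.48) and 0.43 for Blvrb (SE 0.20, adjusted p = 0.46), each from limma. At an unadjusted p below 0.05 there were 0 of these 4 members, and 4 of the 45 other erythroid, haem and iron genes, against 1136 of all 9074, and limma called 0 of the 45 after adjustment. Whether both subsets of a spleen share mice is not given in the labels.

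Within DNAM-1+ cells, Blvrb was 2.02-fold higher in AML than in normal spleen (counting interval 1.42 to 2.97), and the 4 globin genes were 1.71-fold higher (1.17 to 2.53). Within DNAM-1- cells the ratios were 0.970 (0.757 to 1.24) and 0.962 (0.696 to 1.31). Tfrc was 1.41-fold higher in normal than in AML spleen within DNAM-1- cells (1.18 to 1.68), and 1.11-fold (0.930 to 1.33) within DNAM-1+ cells. Red pulp macrophage markers were at 32.4 and 36.7 FPKM in the DNAM-1+ libraries of normal and AML spleen. The difference between the subsets in these ratios has no residual degree of freedom and is given as values.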

How the data were processed

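NK cell RNA-seq was analysed, with 1 library in each of 4 groups that follow the sample titles. Per the file headers the deposited unit is FPKM, given to 2 decimals for genes above 0 by NCBI Gene number. Bowtie2 2.2.5 and RSEM are the tools named per the submitters' processing notes; their roles, the genome build and the annotation are not given in the sources used here. Of 17723 gene numbers, 17668 matched a symbol in the RefSeq table of GRCm38.p6. Of the list symbols, 1 (Ahsp) was not matched.

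The members and lists were chosen with earlier results of these data known. Log2 ratios were taken after adding 1 FPKM. The floor was 5 FPKM in at least 1 library. The test was limma 3.58.1 under R 4.3.3, with a mean-variance trend, additive in subset and spleen, with a two-sided test, Benjamini-Hochberg adjustment over 9074 genes and a threshold of 0.05; the fit was tested on simulated data. Depth was the value at which most low FPKM values of genes with 1 transcript of 1000 to 2000 nt came to within 0.1 of a whole read (up to 4 reads): 67.4% to 75.0% of 84 to 96 values. Reads used the longest coding GENCODE transcript less 49 nt, which assumes reads of 50 nt, and the shorter copy for globins; folds have exact (Clopper-Pearson) 95% counting intervals. Named genes are the 8 members, globins, list genes at that floor, listed carbonic anhydrases, 7 of the 8 genes nearest to Car2 (1 is not reported here) and the 5 nearest to the other members at the floor, and Cd226, Ncr1 and Klrb1c. List genes below that floor (such as Ermap, Epor, Slc4a1, Cd4 and Cd8a) are named as markers and were picked after their values were seen. Alternatives were other pseudocounts, floors, scaling and limma without trend.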

Additional observations from a re-analysis of the deposited data

Results flagged for a closer look

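Several members went opposite ways at the 2 levels of the other factor; with 1 library a group, none of these differences was tested. For Hba-a2 the DNAM-1+ over DNAM-1- log2 ratio was -1.61 with normal spleen and 2.07 with AML spleen, and the AML over normal log2 ratio was 2.07 for DNAM-1+ and -1.61 for DNAM-1- cells, from 0 to about 15 reads that could also belong to Hba-a1. For Tfrc the DNAM-1 log2 ratio was -0.26 with normal and 0.035 with AML spleen. Gata1 had DNAM-1 log2 ratios of -0.23 and 0.084, from at most about 4 reads. Alas2 had log2 ratios of AML over normal spleen that were -0.14 for DNAM-1+ and 0.34 for DNAM-1- cells, from at most about 12 reads. Blvrb had log2 ratios of AML over normal spleen that were 0.89 for DNAM-1+ and -0.041 for DNAM-1- cells.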

How the results depend on the processing

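With pseudocounts of 0.1 and 5 FPKM and with median-ratio scaling, which moved no library by more than 0.01 log2 units, the log2 ratios and limma coefficients of the members kept their direction. Of 48 results per setting, 8 moved with 0.1 FPKM, 4 with 5 FPKM and 0 with scaling, a move being more than the average one-sided width of the log2 counting interval or, where a library is listed at 0 or for a count of genes, more than 1.5 times; a limma coefficient was judged by its call. Those that moved were ratios of Hba-a2, Klf1 and Gata1 that involve a library listed at 0, with Hba-a2 at -4.43 and 5.04 with 0.1 FPKM and at -0.50 and 0.71 with 5 FPKM. Ratios with wide intervals could change much without counting as moved. With 0.1 FPKM the DNAM-1 log2 ratio of Alas2 in AML spleen went from -0.55 to -1.80. That of Gata1 in normal spleen went from -0.23 to -1.09. Blvrb in normal spleen was at -1.0043 with 5 FPKM, against -1.41 with 1 FPKM. The erythroid, haem and iron genes rising in DNAM-1+ cells by limma numbered 1 in place of 2 with a floor of 1 FPKM and 1 without the mean-variance trend. Without a floor, 17723 genes were tested, 0 of these genes rose and 0 fell, 20 of 77 had an unadjusted p below 0.05, and limma called 0 genes in all for the subset (3425 at an unadjusted p below 0.05) and 0 for AML (1269). Over all genes, limma called 1427 for the subset, and 882 without trend. For AML it called 32, and 9 with a floor of 1 FPKM, 5 without trend and 84 with median-ratio scaling, of 9064 genes. The causes were not tested. With 1 library a group, no library could be left out of the limma fit, which then has no residual degree of freedom. No paired analysis was possible because the labels give no replicate or mouse numbers that pair libraries. At 9100000 to 9300000 fragments a library, levels below 1 FPKM rest on few reads.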
